A study of Mus musculus with 2 samples.

Results

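Foxp3, the 5 genes of the Ikaros family (Ikzf1 to Ikzf5) and 3 genes for partner factors of FOXP3 (Runx1, Cbfb and Gata3) were described in splenic regulatory T (Treg) cells after islet transplantation. These 9 genes were chosen by name, and all 9 were found by symbol among the 20938 genes of both expression tables. RNA-seq had been performed on 1 library of Treg cells labelled Ctrl, genotype wild type, and 1 library labelled KD, both from spleen on day 7 post-transplantation. The paper describes the KD mice as Foxp3-Mettl14f/+ cKO, in which Cre driven by the Foxp3 promoter removes 1 of the Mettl14 alleles in Treg cells, and the Ctrl mice as littermate controls. METTL14 is a subunit of the enzyme that places N6-methyladenosine (m6A) on mRNA. The GEO genotype label of the KD library reads as a knockdown of Foxp3 instead, so it is called here the library labelled KD. All recipients were on a C57BL/6J background, had been made diabetic with streptozotocin, carried BALB/c islets under the kidney capsule and had received no anti-CD45RB or anti-CD40L antibody. The cells were enriched magnetically as CD4+CD25+ cells, and the number of mice behind a library was not given in the sources used here.

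FOXP3 is the forkhead transcription factor that defines the Treg lineage, and it acts in large complexes with other DNA-binding proteins and with corepressors. The Ikaros proteins are zinc finger factors: fingers near the amino end bind DNA, and fingers at the carboxyl end join members of the family to each other. Ikaros (Ikzf1) is made throughout the lymphoid lineages, Helios (Ikzf2) and Eos (Ikzf4) are known from Treg cells, Aiolos (Ikzf3) is prominent in B cells and in several T cell subsets, and Pegasus (Ikzf5) is the most distant relative. RUNX1 binds DNA as a heterodimer with CBFB and helps to keep Foxp3 expressed, and GATA3, the factor of type 2 helper T cells, is also found with FOXP3 in Treg cells.

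The deposited levels are whole reads divided by 1 size factor per library, and the reads recovered from them came to 20239325 in the Ctrl library and 18327535 in the library labelled KD. With 1 library per group there is no spread between replicates, and differences are given as the log2 of the KD level plus 1 over the control level plus 1, with 95% exact Clopper-Pearson intervals that cover counting error only. The labelled cell type was checked on its markers. The T cell genes Cd3e (4638 and 3413 reads in the Ctrl library and the library labelled KD) and Cd4 (8371 and 4658 reads) were well covered, but 14 granulocyte markers held 271312 and 313188 reads, against 60376 and 40746 on 17 T cell core genes. Markers of other cells were thus read in both libraries, and in bulk RNA fewer cells of a type and less RNA per cell cannot be told apart. By flow cytometry the paper reports that most of its sorted cells were Treg cells, and these reads do not measure fractions of cells. Mettl14 had 948 and 652 reads and a log2 fold change of -0.31 (95% counting interval -0.45 to -0.16). Mettl3, which encodes its catalytic partner, had 1192 and 704 reads and a value of -0.53 (-0.66 to -0.39). Setting the summed level of the T cell core genes equal between the libraries adds 0.33 to log2 fold changes. The Mettl14 value is smaller in size than this shift, so its sign rests on the scaling, and the Mettl3 value is larger. Per Foxp3 read, 0.613 and 0.479 Mettl14 reads were counted, a difference of -0.36 in log2 (-0.54 to -0.17).

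Among the 9 genes, Ikzf3 was higher and Ikzf4 lower in the library labelled KD by at least 1.5-fold, and the other 7 genes differed by less. The paper combined this fold with a second cutoff of 0.1, and only the fold threshold was applied to these counts. Over all 16659 genes whose mean level reached 1, 41.4% passed this threshold in either direction, 17.2% as higher and 24.2% as lower. This share was 20.6% among the 10693 genes whose mean level reached 100, 11.9% as higher and 8.71% as lower. All 9 genes lay in this range, and 2 of 9 is near this second share and below the first. Lower genes were thus the larger part over all genes, and higher genes in this range. Of the genes past the threshold among all 16659, 41.6% were higher, or 61.2% when the summed level of 17 T cell core genes was set equal between the libraries. The 9 genes had a median log2 fold change of -0.05, beside -0.04 for all genes. Of the 9 intervals, 2 lay above 0 (Ikzf3 and Ikzf1), 4 lay below it (Ikzf4, Ikzf2, Gata3 and Cbfb) and 3 held it (Foxp3, Ikzf5 and Runx1).

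Foxp3, on chromosome X of GRCm38 from 7573644 to 7595245 on the plus strand, had 1547 reads in the Ctrl library and 1361 in the library labelled KD. The deposited levels were 1497 and 1548, a log2 fold change of 0.05 (95% counting interval -0.06 to 0.15), which is 1.03-fold (0.961 to 1.11). The interval holds 0, and the sign rests on the scaling, since the value was -0.04 with library totals. A knockdown of Foxp3, which the label names, was thus not seen as a difference in its mRNA outside counting error. By western blot, described ahead of its transplantation experiments on these mice, the paper reports less FOXP3 protein in Treg cells of Foxp3-Mettl14f/+ cKO mice. By flow cytometry it reports a lower proportion of CD4+CD25+Foxp3+ cells among splenic CD4+ cells of these mice on day 7, with or without the antibodies. That proportion counts cells among all CD4+ cells, whereas the libraries came from cells enriched for CD25. Protein was not measured in these data. Relative to T cell genes Foxp3 mRNA was higher. There were 0.185 Foxp3 reads per Cd4 read in the Ctrl library and 0.292 in the library labelled KD. The difference was 0.66 in log2 (0.54 to 0.78). Per Cd3e read the values were 0.334 and 0.399, a difference of 0.26 (0.13 to 0.38). The T cell core genes themselves had a median of -0.32, with 16 of 17 below 0, 3 of them at least 1.5-fold lower and none at or under 3 reads. With their summed level set equal between the libraries, the value of Foxp3 was 0.38, under 1.5-fold, while the median of all genes moved to 0.29.

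Exons of Foxp3 overlap those of neighbours on the opposite strand, 590 of 4577 bases with Ccdc22 and 266 with Ppp1r3f, and the strand setting of the counting was not given. Ccdc22 had 775 and 591 reads and Ppp1r3f 258 and 222, with log2 fold changes of -0.16 (95% counting interval -0.31 to -0.0015) and 0.02 (-0.25 to 0.28). Reads in these stretches cannot be assigned to one gene without strand. On the same strand 853 exon bases are shared with Flicr, a long noncoding RNA gene that strand would not separate from Foxp3, and on the opposite strand 373 are shared with Gm36995; neither gene was analysed here. Exon overlaps of 37 to 183 bases with genes not analysed here also occur in Ikzf2, Ikzf4, Ikzf5, Runx1 and Gata3.

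The 250 bases before the first RefSeq start of Foxp3 (GRCm38.p6, chrX:7579426-7579675, plus strand) are shown because several of the factors described here bind at this gene. They lie inside the longer gene model of GENCODE vM21. The letters searched on both strands were TGTGGT for RUNX factors, TGGGAA for the Ikaros family, NGATAA for GATA factors and TGTTTA for forkhead factors, and matches are in capitals.

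Foxp3 promoter: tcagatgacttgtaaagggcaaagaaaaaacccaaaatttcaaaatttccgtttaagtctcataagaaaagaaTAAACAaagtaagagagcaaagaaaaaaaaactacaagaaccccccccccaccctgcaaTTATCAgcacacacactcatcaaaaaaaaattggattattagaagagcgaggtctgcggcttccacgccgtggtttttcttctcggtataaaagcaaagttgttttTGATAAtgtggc

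The GATA letters matched at 118 and 12 bases before the start, the forkhead letters matched once at 177 bases, and the matches do not overlap. Neither the RUNX nor the Ikaros letters occur in this window, which says only that these letters are not in these bases. Among all 32851 RefSeq windows of this length, 14.0% held the RUNX letters, 21.6% the Ikaros letters, 22.5% the GATA letters and 12% the forkhead letters. A second Foxp3 start had 1 GATA match, at 47 bases before it. Windows were also at hand for Ikzf1, Ikzf5, Runx1, Cbfb and Gata3, and none of their 7 windows held any of the 4 motifs; the members without a window were Ikzf2, Ikzf3 and Ikzf4.

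Levels can be compared between genes only per length, and RPKM, reads per kilobase of annotated exon scaled to the library total, was used. These are levels of the bulk libraries, in which markers of other cells were also read, and not levels within Treg cells. Ikzf1 had the highest level of the 9 genes, with 125 RPKM in the Ctrl library and 129 in the library labelled KD, which placed it at percentile 98.7 of the levels of all genes. In the Ctrl library it was followed by Cbfb (31.6), Ikzf3 (22.1), Foxp3 (16.7), Gata3 (14.3), Runx1 (11.7), Ikzf2 (10.8), Ikzf5 (7.57) and Ikzf4 (2.37). In the library labelled KD the order was Ikzf1, Ikzf3 (45.9 RPKM), Cbfb (27.8), Foxp3 (16.2), Gata3 (11.8), Runx1 (10.6), Ikzf2 (8.69), Ikzf5 (7.68) and Ikzf4 (1.36), so that Ikzf3 and Cbfb had exchanged places. Between neighbours in these orders, only the counting intervals of Gata3 and Runx1 in the library labelled KD overlapped (11.0 to 12.6 and 10.1 to 11.0 RPKM). The range from Ikzf4 to Ikzf1 was 52.8-fold in the Ctrl library and 95-fold in the library labelled KD. When the reads were divided by coding length, Ikzf1, Cbfb and Ikzf3 still led in the Ctrl library, but Runx1 and Ikzf2 then lay above Foxp3 (98.1 and 78.3 against 59.4 on the same scale over coding bases).

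**Figure D1:**
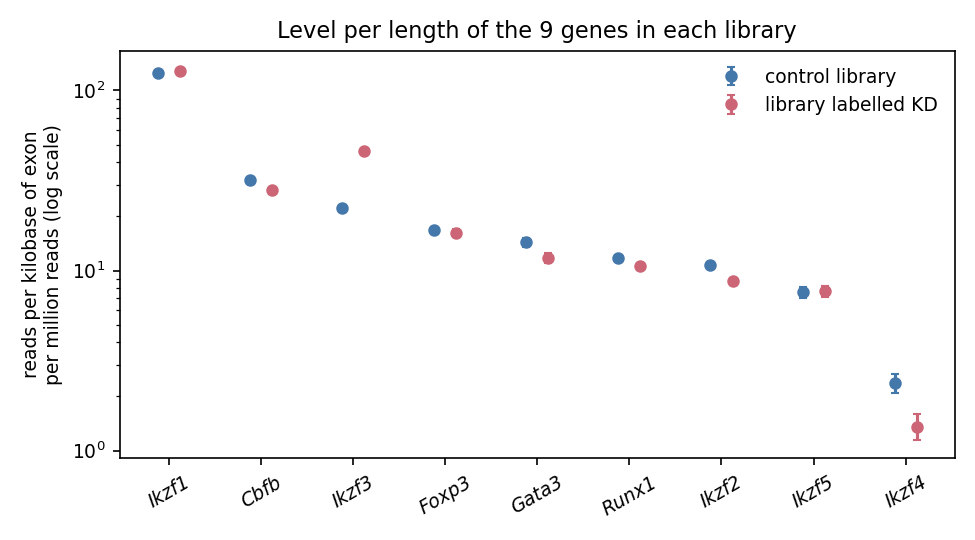
Level of each gene in RPKM, on a log axis, in the Ctrl library (blue) and the library labelled KD (red), with 95% counting intervals. Ikzf1 stands at 125 and 129, Ikzf3 passes from 22.1 to 45.9, and Ikzf4 is the lowest gene in both libraries at 2.37 and 1.36.

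Ikzf1 to Ikzf4 encode a nearly identical second finger, so it matters whether the reads of the family can be told apart. The coding sequence of the second finger of Ikzf1 is shown with the most similar finger of each relative, taken from GENCODE vM21 transcripts on GRCm38. Capitals mark bases that differ from Ikzf1.

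Ikzf1 (chr11:11754024-11754092, plus strand): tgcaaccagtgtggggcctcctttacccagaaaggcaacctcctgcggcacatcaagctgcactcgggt
Ikzf2 (chr1:69570575-69570643, minus strand): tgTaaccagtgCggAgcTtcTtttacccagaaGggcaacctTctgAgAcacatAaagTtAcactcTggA
Ikzf3 (chr11:98488934-98489002, minus strand): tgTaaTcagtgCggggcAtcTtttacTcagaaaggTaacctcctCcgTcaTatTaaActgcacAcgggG
Ikzf4 (chr10:128640223-128640291, minus strand): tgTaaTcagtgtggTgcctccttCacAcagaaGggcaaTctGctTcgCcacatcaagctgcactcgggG
Ikzf5 (chr7:131392579-131393821, minus strand, across an exon junction): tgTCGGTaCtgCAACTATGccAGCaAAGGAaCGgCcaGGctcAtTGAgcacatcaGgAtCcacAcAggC

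All 23 residues of this finger are the same in Ikzf1, Ikzf2 and Ikzf4, and 22 of 23 in Ikzf3, whereas the first finger of Ikzf5, its closest, shares 7. The bases are less alike: of 69, Ikzf2 and Ikzf3 each differ from Ikzf1 at 14, Ikzf4 at 11 and Ikzf5 at 37. Over whole transcripts, the longest run of identical bases between Ikzf1 and Ikzf3 was 26, and it lies in the coding sequence of both: gatccctttgagtgtaacatgtgtgg. No pair of the 5 genes shared a run longer than 32 bases, which was found between Ikzf2 and Ikzf4 and not within the coding sequence of both. A longer read from one gene therefore cannot match another of the 5 exactly, on the same strand, along its whole length. Matches with mismatches, which an aligner can accept, were not searched. Read length was not given in the sources used here.

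Ikzf1, on chromosome 11 from 11685003 to 11772926, had 14598 reads in the Ctrl library and 13634 in the library labelled KD. Its log2 fold change was 0.13 (95% counting interval 0.10 to 0.17), under 1.5-fold. The narrow interval reflects its depth and includes no replicate spread. Per Foxp3 read, 9.44 Ikzf1 reads were counted in the Ctrl library and 10.02 in the other, and the interval of this difference held 0 (0.09, -0.03 to 0.20). Ratios to Foxp3, here and below, are those of the bulk libraries, in which reads from other cells were not set apart.

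Ikzf2, on chromosome 1 from 69531214 to 69687245, held 2529 reads in Ctrl and 1850 in KD, with a log2 fold change of -0.22 (95% counting interval -0.31 to -0.13), under 1.5-fold. Helios is a marker of Treg cells of thymic origin. Relative to Foxp3, Ikzf2 reads went from 1.63 to 1.36 per Foxp3 read, a difference of -0.27 in log2 (-0.40 to -0.13). After equalising the T cell core genes its value was 0.12 instead, so the sign on the deposited scale rests on the scaling.

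Ikzf4, on chromosome 10 from 128630843 to 128645991, was the least abundant gene and was 1.63-fold lower (1.34 to 2.01) in the library labelled KD. It had 287 reads in the Ctrl library and 149 in the other, deposited levels of 278 and 169, and a log2 fold change of -0.71 (95% counting interval -1.01 to -0.42). Eos recruits the corepressor CtBP1 to FOXP3 target genes, and Ctbp1 had 3936 and 2957 reads and a value of -0.18 (-0.25 to -0.11). The counts gave 0.186 and 0.109 Ikzf4 reads per Foxp3 read, a difference of -0.76 (-1.08 to -0.45). Ikzf4 also differed more than Ikzf2: Ikzf2 reads per Ikzf4 read were 8.81 and 12.4, and the difference of 0.49 in log2 (0.19 to 0.80) was outside counting error. After equalising the T cell core genes, Ikzf4 was at -0.38 and no longer past 1.5-fold. The lower reads on T cell core genes move with this result, and their part in it was not tested.

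Ikzf3, on chromosome 11 from 98464902 to 98546031, was 2.21-fold higher (2.13 to 2.30) in the library labelled KD. It had 3915 reads in the Ctrl library and 7370 in the other, deposited levels of 3787 and 8381, and a log2 fold change of 1.15 (95% counting interval 1.09 to 1.20), which lay at percentile 91.0 of the fold changes of all genes. It was past 1.5-fold under every scaling tried, from 1.06 with library totals to 1.48 after equalising the T cell core genes. Per Foxp3 read, Ikzf3 went from 2.53 to 5.42 reads, a difference of 1.10 (0.98 to 1.22), and per Ikzf1 read from 0.268 to 0.541, a difference of 1.01 (0.95 to 1.08).

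Aiolos is abundant in B cells, and the B cell markers moved the same way. All 14 B cell markers were at least 1.5-fold higher, with a median of 2.38 and a range of 0.63 to 3.10, none was at or under 3 reads in either library, and their reads summed to 12651 and 48172. Cd79a, a chain of the B cell receptor complex, had 1012 and 4318 reads, and Pax5, the B lineage factor, had 1065 and 7778. Read against Cd79a and Pax5, Ikzf3 was lower. Per Cd79a read, 3.87 and 1.71 Ikzf3 reads were counted, a difference of -1.18 in log2 (-1.30 to -1.07). Per Pax5 read the values were 3.68 and 0.948, a difference of -1.96 (-2.07 to -1.85). This direction depends on the marker, since the lowest of the 14, at 0.63, rose less than Ikzf3, at 1.15. Of 5 plasmacytoid dendritic cell markers 4 were also higher, with a median of 0.98 and sums of 3751 and 5751 reads. The part of these cells in the result for Ikzf3 was not tested.

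Ikzf5, on chromosome 7 from 131388652 to 131410521, held 876 reads in Ctrl and 805 in KD, with a log2 fold change of 0.11 (95% counting interval -0.03 to 0.25), an interval that held 0. This value is uncertain, because 4652 of the 5721 exon bases of Ikzf5 (81.3%) lie over exons of Pstk on the opposite strand. Pstk had 150 and 143 reads and a value of 0.16 (-0.18 to 0.50).

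The reads of the family as a whole shifted toward Ikzf3. The 5 genes held 22205 reads in the Ctrl library and 23808 in the library labelled KD, and their summed level differed by 0.33 in log2 (95% counting interval 0.31 to 0.36), or by 0.08 (0.05 to 0.11) without Ikzf3. Ikzf3 made up 17.6% of the family reads in the Ctrl library (exact binomial 95% interval 17.1% to 18.1%) and 31.0% in the other (30.4% to 31.5%). The share of Ikzf1 was 65.7% and 57.3%, that of Ikzf2 11.4% and 7.77%, that of Ikzf5 3.95% and 3.38%, and that of Ikzf4 1.29% and 0.626%. These shares are computed within a library and do not depend on its scaling. They are parts of a whole, so a higher share of Ikzf3 means a lower summed share of the other 4 genes. On the deposited scale Ikzf1 and Ikzf5 were at 0.13 and 0.11, and Ikzf2 and Ikzf4 at -0.22 and -0.71. After division by exon length, Ikzf3 held 13.2% and 23.9% of the family's level.

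**Figure D2:**
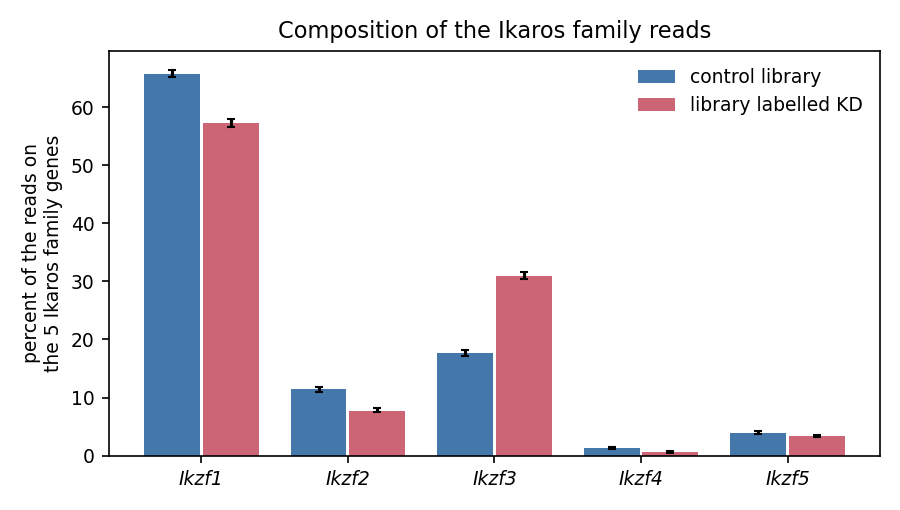
Percent of the reads on the 5 Ikaros family genes that fell on each gene, with exact 95% binomial intervals, in the Ctrl library (blue) and the library labelled KD (red). The bar of Ikzf3 goes from 17.6% to 31.0%, and the bars of the other 4 genes are lower in the library labelled KD. The bars are parts of a whole, so a higher bar of Ikzf3 means a lower sum of the other 4.

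Runx1 and Cbfb, which encode the DNA-binding and the stabilising subunit of core binding factor, differed little. Runx1, on chromosome 16 from 92601466 to 92826149, had 2840 reads in the Ctrl library and 2327 in the library labelled KD, and a log2 fold change of -0.05 (95% counting interval -0.13 to 0.03). Cbfb, on chromosome 8 from 105170674 to 105217989, held 2226 and 1775 reads, with a value of -0.09 (-0.18 to -0.0027). There were 1.28 and 1.31 Runx1 reads per Cbfb read, a difference whose interval held 0 (0.04, -0.08 to 0.16). The other RUNX genes lay under 1.5-fold on the deposited scale and past it after equalising the T cell core genes, at 0.82 for Runx3 and 0.65 for Runx2. Runx3, the factor of CD8 T cells, had 3271 and 3894 reads and a value of 0.48 (0.42 to 0.55). For Runx2 the reads were 975 and 1036 and the value was 0.32 (0.19 to 0.45). Of 8 CD8 T and NK cell markers 5 were at least 1.5-fold higher, with a median of 0.65 and sums of 5002 and 8620 reads, and their part in the values of Runx3 was not tested.

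Gata3, on chromosome 2 from 9857078 to 9890034, held 1155 reads in Ctrl and 857 in KD, with a log2 fold change of -0.20 (95% counting interval -0.33 to -0.07), under 1.5-fold. Per Foxp3 read, 0.747 and 0.630 Gata3 reads were counted, a difference of -0.25 (-0.41 to -0.08). After equalising the T cell core genes the values of Gata3, Cbfb and Runx1 were 0.14, 0.24 and 0.28, so their signs, too, rest on the scaling. Its relatives Gata1, the erythroid factor, and Gata2, a factor of progenitors and mast cells, were lower: Gata1 had 1426 and 551 reads and fell by 1.14 on the log2 scale (interval -1.28 to -1.0), and Gata2 had 760 and 378 reads and fell by 0.77 (-0.96 to -0.59). Zfpm1, which encodes a cofactor of GATA proteins, had 5578 and 2971 reads and fell by 0.68 (-0.74 to -0.61). After equalising the T cell core genes, Gata1 at -0.80 was still past 1.5-fold, and Gata2 at -0.44 and Zfpm1 at -0.34 were not. Erythroid markers moved with these genes: 11 of 12 were at least 1.5-fold lower, with a median of -1.24 and sums of 36990 and 13269 reads, and so were 5 of 6 stem and progenitor markers, with a median of -1.29, sums of 4513 and 2499 reads and Mecom at or under 3 reads in 1 library. The part of these cells was not tested.

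**Figure D3:**
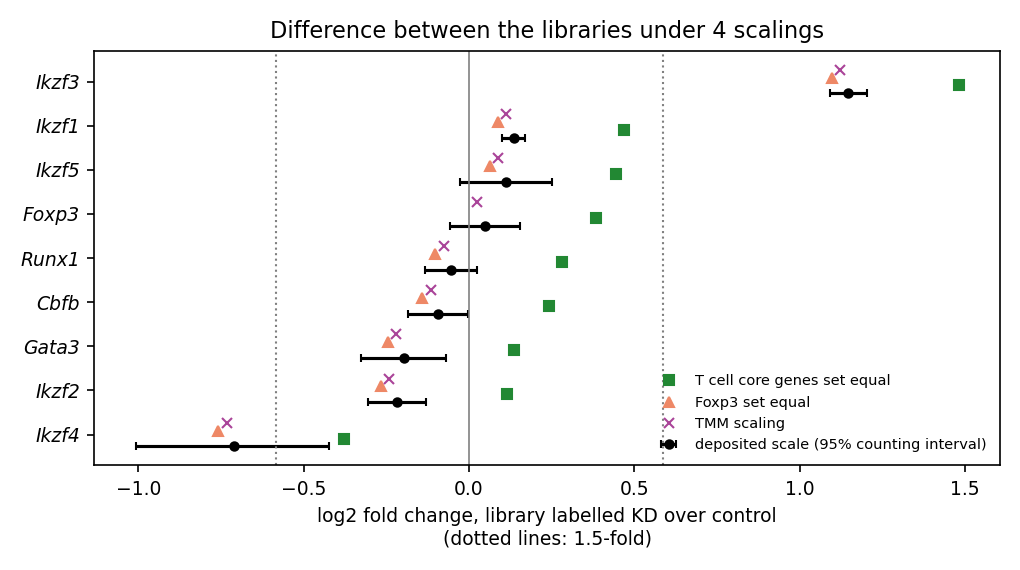
Log2 fold change of each gene, library labelled KD over control, on the deposited scale with its 95% counting interval (black circles), and with TMM scaling (purple crosses), the T cell core genes equalised (green squares) or Foxp3 set equal (orange triangles). Ikzf3 lies past the dotted 1.5-fold line under all 4, and Ikzf4 at -0.71 crosses back over it, to -0.38, after equalising the T cell core genes.

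The other genes that act with FOXP3 and the Ikaros proteins were taken from 11 lists. Counting each gene once, 108 genes passed the minimum level, of which 14 were higher and 9 lower by 1.5-fold or more, with a median of 0.10. These 23 genes are 21.3% of the 108, near the 20.6% of all genes whose mean level reached 100 and below the 41.4% of all genes tested. More of them counted as higher after equalising the T cell core genes: 10 against 5 of the genes that FOXP3 induces, 8 against 3 of the other partner factors, 5 against 2 of the regulators of the Foxp3 locus, 4 against 1 of the corepressors and chromatin enzymes, and 2 against 0 of NuRD. The same scaling gave 3 against 1 for both the genes that FOXP3 represses and those associated with GATA3. It gave 2 against 1 for the FOXP family, while the genes for FOXP3 protein stability stayed at 1. Over all genes past the minimum level, the share counted as higher rose too, from 17.2% to 29.9%. A rise was thus also seen over all genes. Whether the lists rose more than genes of like level was not tested. The NuRD complex, through which Ikaros remodels chromatin, had 0 of 13 genes past 1.5-fold and a median of -0.02, and its most abundant subunit Chd4 had 16238 and 15342 reads and a log2 fold change of 0.15 (0.12 to 0.18). Among 15 corepressors and chromatin enzymes 1 was higher and 1 lower, with a median of 0.06. Hdac9, a histone deacetylase, rose by 0.92 from 275 to 444 reads, Ezh2, the histone H3 lysine methyltransferase of Polycomb, fell by 0.61 from 2507 to 1395 reads, and Ncor1, the most abundant, was at -0.01. After equalising the T cell core genes, Ezh2 was at -0.28 and Ncor1 at 0.32.

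In the FOXP family Foxp1, a relative that is made in many lymphocytes, had 4967 and 6823 reads and rose by 0.69 (95% counting interval 0.64 to 0.74). Foxp4 had 1472 and 1655 reads and a value of 0.40 (0.30 to 0.50). Foxp2 had 10 reads in the Ctrl library and 0 in the other, which counts as past 1.5-fold but carries no measurable size. Among 18 other partner factors 3 were higher and 1 lower, with a median of 0.21. Stat3 rose by 0.88 from 3939 to 6151 reads, and Rel, the NF-kappaB subunit that helps to start Foxp3 transcription, rose by 0.79 from 2217 to 3256. The abundant Ets1 had 16923 and 17959 reads and was at 0.32.

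Regulators of the Foxp3 locus had 2 of 15 genes higher and 0 lower, with a median of 0.13. Nr4a1, an orphan receptor induced by T cell receptor signals, rose by 2.02 from 982 to 3400 reads, Dnmt3a, a DNA methyltransferase, by 1.08 from 1125 to 2027, and the most abundant gene Kmt2d was at 0.32. Of 7 genes for FOXP3 protein stability 1 was higher and 0 lower, with a median of -0.03. This was Usp44, a deubiquitinase gene with 30 and 139 reads that rose by 2.41 (interval 1.87 to 3.07), while the abundant Usp7 was at -0.06, or 0.28 after equalising the T cell core genes.

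Of 18 genes that FOXP3 is known to induce 5 were higher and 1 lower by 1.5-fold, with a median of 0.34. Of the 18, 12 lay above 0 and 6 below it. Over all genes 17.2% were higher and 24.2% lower. Of those whose mean level reached 100, 20.6% were past 1.5-fold, 11.9% as higher and 8.71% as lower. B cell and macrophage markers were also higher (medians 2.38 and 3.0), and the part of other cells in these values was not tested. Lrrc32, which presents latent TGF-beta on Treg cells, rose by 1.35 from 187 to 406 reads, and Ebi3, a subunit of interleukin 35, by 0.98 from 226 to 381. Tnfrsf4, the costimulatory receptor OX40, fell by 0.68 from 438 to 233 reads, and after equalising the T cell core genes was at -0.34. Capg, the most abundant gene of the list, was at 0.48. Of 10 genes that FOXP3 represses, 9 passed the minimum level, with a median of -0.08. The gene counted as higher was Il4, with 0 and 7 reads, and the one counted as lower was Il2, with 9 and 0; Il7r, the most abundant, was at 0.58, just under 1.5-fold. Il4 and Il2 are named here after their values were seen. Of 9 genes associated with GATA3, 6 passed the minimum level, with 1 higher (again Il4), 1 lower and a median of -0.02. The lower gene, Ccr4, a chemokine receptor, fell by 0.93 from 425 to 190 reads, and Il4ra was at 0.58.

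**Figure D4:**
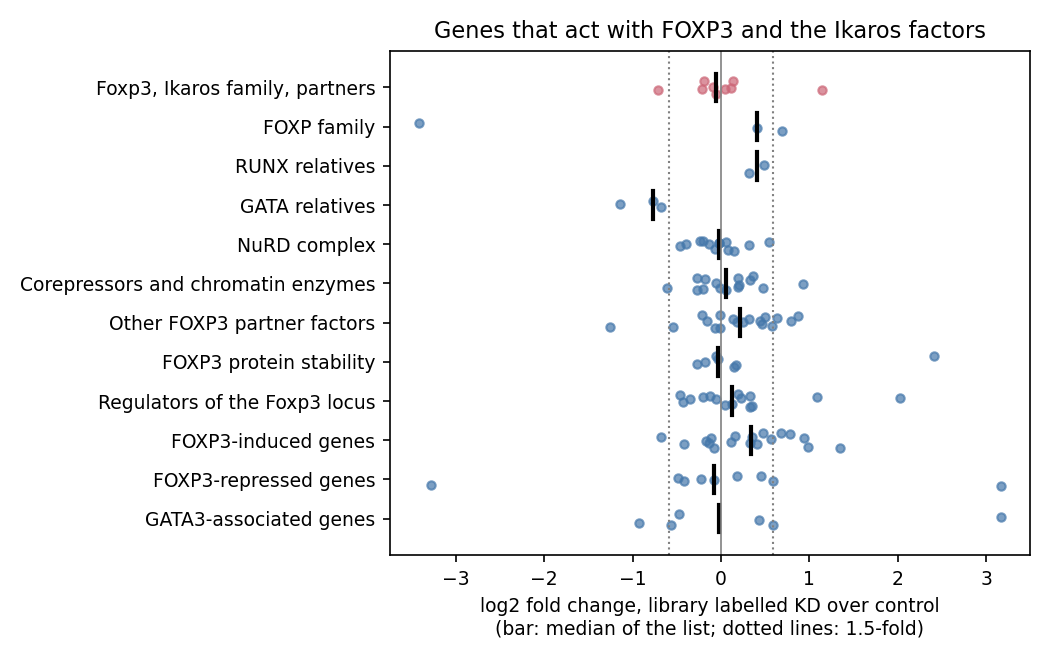
Log2 fold change, library labelled KD over control, of each gene in the 11 lists of genes that act with FOXP3 and the Ikaros factors (blue) and of the 9 genes described here (red), with the median of each list as a black bar. The medians lie between -0.77 for the GATA relatives and 0.40 for the FOXP and RUNX relatives, and the outermost points are genes with 10 or fewer reads in each library.

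The remaining cell type lists give the setting in which these values stand. All 12 macrophage markers were at least 1.5-fold higher, with a median of 3.0, or 2.97 with Marco, which was at or under 3 reads in 1 library, set against 3 reads. Csf1r, the receptor gene of that list, had 2197 and 4145 reads. Of 14 granulocyte markers 2 were higher and 3 lower, with a median of 0.36, and S100a9 had 76931 and 89733 reads. The erythroid factor gene Klf1 had 1804 and 519 reads. Of 7 megakaryocyte markers 3 were higher and 1 lower, with a median of 0.42, and Pf4 had 58 and 97 reads. Of 6 mast cell and basophil markers 1 was higher and 2 lower, with a median of -0.16.

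**Figure D5:**
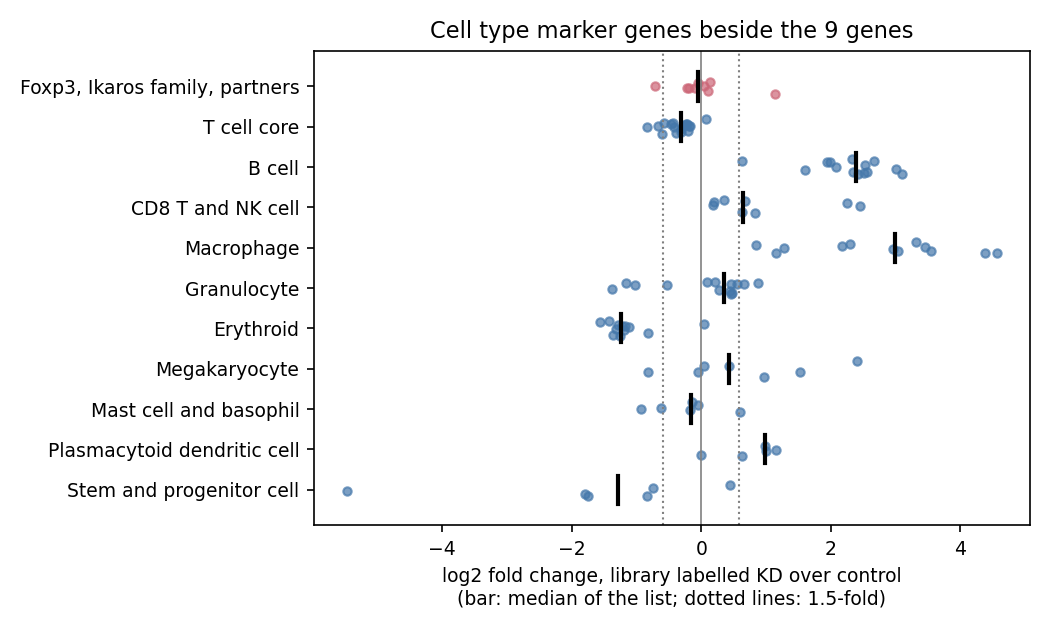
Log2 fold change, library labelled KD over control, of marker genes of 10 cell types (blue) beside the 9 genes (red), with medians as black bars and 1.5-fold as dotted lines. T cell core genes center at -0.32, B cell and macrophage markers at 2.38 and 3.0, and erythroid markers at -1.24.

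A count model was also run on the recovered reads, with a spread between replicates that had to be assumed. With a biological coefficient of variation assumed to be 0.2, edgeR's exact test at an adjusted p under 0.1 called 2419 of 14863 genes (16.3%) and 1 of the 9, Ikzf3, with an adjusted p of 0.051. With a coefficient of 0.4 it called 798 genes (5.37%) and 0 of the 9. With 1 library a group, such a test says nothing of the genotypes.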

How the data were processed

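RNA-seq libraries of splenic Treg cells were aligned by the authors to the mouse genome (mm10) with TopHat; the submitters' processing notes also name bcl2fastq 2.0, STAR, StringTie and DESeq2. The counting tool, annotation and strand setting were not given in the sources used here. The deposited values are a signal, gene counts that the authors divided by 1 size factor per library: 100% of values lay within 0.01 of a whole multiple of the smallest, 0.967 and 1.14, so whole reads were recovered by division. The floor of 3 reads corresponds to 0.148 and 0.164 RPM. With 1 library per group, intervals (exact Clopper-Pearson for ratios and shares, exact Poisson for RPKM) cover counting error only. They treat reads as independent, and since no molecular identifiers were used, duplicate reads could not be set apart.

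Fold changes used a pseudocount of 1 and a minimum mean level of 1. Lengths and coordinates came from GENCODE vM21 (GRCm38), promoter windows from RefSeq (GRCm38.p6), where 6 of 9 members matched. The members and lists were chosen with earlier results of these data known. Named were all members, Mettl14 and Mettl3, all FOXP, RUNX and GATA relatives and, per list, the most abundant gene and up to 2 higher and 2 lower genes past 1.5-fold with at least 100 reads over both libraries, plus a few cell type markers; 1 gene that the rule names is not reported here, and Ctbp1, Il2, Il4, Marco, Mecom and the overlapping neighbours lie outside this rule. No gene was named for likeness of pattern, since 2 libraries give 1 difference per gene. Tools were Python 3.11.15, scipy 1.17.1, R 4.3.3, edgeR 4.0.16 (TMM, exact test with Benjamini-Hochberg adjustment, genes with at least 10 reads) and DESeq2 1.42.0 (size factors). Intervals and the exact test were checked on simulated data.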

Additional observations from a re-analysis of the deposited data

How the results depend on the processing

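No paired analysis was possible because each group has 1 library, and for the same reason no replicate could be left out. After equalising the T cell core genes, the log2 fold change of Foxp3 was 0.38, the median of the 9 genes was 0.28 and 1 gene was past 1.5-fold; the median of all genes moved by 0.33 to 0.29, and 61.2% of the genes past 1.5-fold were higher, against 41.6% on the deposited scale. A threshold of 2-fold left 1 gene, and edgeR's exact test gave 1 with an assumed coefficient of 0.2 and 0 with 0.4. A minimum mean level of 100, chosen after seeing the data, lowered the share of all genes past 1.5-fold to 20.6%, with 11.9% higher and 8.71% lower. With TMM or median-of-ratios scaling and with a pseudocount of 0.1 or 5, the values of all 9 genes stayed within their counting intervals. With library totals 4 of the 8 genes other than Foxp3 left theirs, with Foxp3 set equal 1 did, and no gene past 1.5-fold changed sign under any of these settings. Differences smaller than the spread between animals, which 2 libraries cannot measure, are beyond these data whatever the depth.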
